A study of Mus musculus with 9 samples.

Results

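Many mouse genes still carry the name of the RIKEN cDNA clone through which they were first catalogued, a code that ends in Rik. In the liver count tables studied here 2279 of 23337 gene symbols had this form, and 275 of them reached a mean of at least 15 CPM, reads scaled to each library's gene reads, in at least 1 diet group. These 275 genes are described below. They were chosen by their mean CPM in these libraries, so their levels are a description. Livers came from wild-type mice given, for 12 weeks from 8 weeks of age, a 60% high-fat diet with 0.25% hyodeoxycholic acid (HFD_HDCA), the same high-fat diet alone (HFD) or a normal diet (ND). Each group had 3 livers from fed mice, and the strain and sex are not given in the sources used here. Hyodeoxycholic acid is a secondary bile acid, and the series concerns fat accumulation in the liver, invariant NKT cells and the nuclear receptor PPARα. RNA was sequenced from whole liver, so a smaller number of cells of a type and less RNA per cell cannot be told apart.

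A clone name says nothing of what a gene does. RefSeq has since given other symbols to many of them, only some of which name a function, and the rest keep the code. The renamed ones include assembly factors of the respiratory chain, parts of the membrane traffic machinery, RNA-processing factors and liver enzymes. Those that keep the code include protein-coding genes and long non-coding RNAs. The latter are transcripts with no long reading frame, often lying beside or antisense to a protein-coding gene.

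Of the 275 genes, 272 were matched to RefSeq and 195 of these now have another symbol, given below in brackets. Protein-coding genes numbered 248 and non-coding genes 24, of which 23 were long non-coding RNAs, and 3 genes were not matched. The remaining 77 matched genes keep the Rik symbol. New symbols had been given to 185 of the 248 protein-coding genes (74.6%) and to 10 of the 24 non-coding genes (41.7%). Most of the set, 223 genes, reached the limit in all 3 groups, 29 reached it in 2 groups and 23 in 1 group. Of these 23, the single group was HFD_HDCA for 16, HFD for 6 and ND for 1. This split was not counted for all 7027 genes that reached the limit in a group, so it is a description only. Another 2004 Rik-named genes stayed under the limit in every group, and 922 Rik-named genes had no read in any of the 9 libraries.

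The limit fell where levels were closely spaced. Just inside it lay 5730455O13Rik, highest in HFD at 15.2 CPM, 2810013P06Rik, highest in HFD_HDCA at 15.4 CPM, and 1110008P14Rik, highest in HFD_HDCA at 15.5 CPM. Just outside lay 1810063B07Rik at 14.8 CPM, 1700021F05Rik at 14.6 CPM and 2810432D09Rik at 14.5 CPM, each at its highest mean in HFD_HDCA. A gene that reached the limit in only some groups had to differ in level between groups, so counts of changed genes are also given for the 223 that reached it everywhere.

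Promoter sequences are shown for 4 long non-coding RNA genes whose level was higher in HFD_HDCA than in HFD livers and for Etfbkmt, which had the largest fall in HFD relative to ND livers. They come from RefSeq on GRCm38.p6, the assembly of mm10, run 5′ to 3′ on the gene's strand, and cover 250 bases before and 50 bases from a start site. Capitals mark each match, on either strand, to the TATA box TATAAA, the E-box CACGTG or AGGTCA, the core motif of many nuclear receptors. No matches overlapped in these windows.
1300015D01Rik [Ctcflos], chr2:173124499-173124798, plus strand: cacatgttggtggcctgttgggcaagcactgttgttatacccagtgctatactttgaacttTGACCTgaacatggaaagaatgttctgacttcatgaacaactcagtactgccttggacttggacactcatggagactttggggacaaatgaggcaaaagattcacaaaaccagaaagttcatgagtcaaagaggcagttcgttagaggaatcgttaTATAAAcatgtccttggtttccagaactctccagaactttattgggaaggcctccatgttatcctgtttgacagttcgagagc
1300002E11Rik, chr16:21794097-21794396, plus strand: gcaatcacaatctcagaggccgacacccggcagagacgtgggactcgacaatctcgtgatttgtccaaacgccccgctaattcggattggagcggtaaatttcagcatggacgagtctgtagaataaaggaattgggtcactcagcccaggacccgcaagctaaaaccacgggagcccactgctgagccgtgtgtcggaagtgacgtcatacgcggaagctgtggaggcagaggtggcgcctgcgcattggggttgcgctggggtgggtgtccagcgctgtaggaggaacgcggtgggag
2810013P06Rik, chr8:123042325-123042624, plus strand: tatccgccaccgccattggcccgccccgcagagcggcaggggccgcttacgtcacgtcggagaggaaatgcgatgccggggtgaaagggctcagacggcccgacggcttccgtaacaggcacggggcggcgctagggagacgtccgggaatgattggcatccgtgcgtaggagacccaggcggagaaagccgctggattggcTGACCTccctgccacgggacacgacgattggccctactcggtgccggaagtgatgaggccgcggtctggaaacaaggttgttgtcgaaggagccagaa
4931408D14Rik, chr19:37264046-37264345, minus strand: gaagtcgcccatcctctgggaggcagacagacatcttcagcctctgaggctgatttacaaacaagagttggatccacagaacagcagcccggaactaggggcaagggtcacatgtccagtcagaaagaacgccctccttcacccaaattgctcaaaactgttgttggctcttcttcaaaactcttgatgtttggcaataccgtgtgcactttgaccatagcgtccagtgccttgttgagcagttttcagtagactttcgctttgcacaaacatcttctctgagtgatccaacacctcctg
4833442J19Rik [Etfbkmt], chr6:149141263-149141562, plus strand: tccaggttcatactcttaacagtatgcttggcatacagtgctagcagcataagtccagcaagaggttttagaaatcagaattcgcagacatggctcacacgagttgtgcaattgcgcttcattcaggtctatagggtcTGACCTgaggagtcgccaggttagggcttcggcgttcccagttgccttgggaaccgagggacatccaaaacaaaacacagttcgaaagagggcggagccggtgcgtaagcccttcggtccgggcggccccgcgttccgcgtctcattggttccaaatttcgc

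These windows differed in composition. The 1300015D01Rik window held 43.3% G and C and 3 CG pairs, with a TATAAA and an AGGTCA match. At the other end stood 2810013P06Rik, with 65.0% G and C, 32 CG pairs and an AGGTCA match. None of the 3 motifs was found in the 1300002E11Rik or 4931408D14Rik windows, and the Etfbkmt window held 1 AGGTCA. Over all 283 promoters of 235 members in the RefSeq table the median was 61.3% G and C and 22 CG pairs, against 52.7% and 7 pairs over all 32851 promoters of that table. By class the median number of CG pairs was 10 for 22 promoters of non-coding members and 22 for 261 promoters of protein-coding members. AGGTCA was present in 13.1% of the members' promoters and in 16.3% of all promoters, and TATAAA in 9.89% and 13.6%. CACGTG was present in 12% of the members' promoters and in 7.15% of all promoters. The members were chosen by their level and 90.2% of them were protein-coding, which does not hold for all promoters. Other genes at 15 CPM or more were not compared, so these differences cannot be assigned to Rik-named genes as such. Among the 14 promoters of 13 members higher in HFD_HDCA than in HFD livers, 6 held AGGTCA (42.9%), 3 held TATAAA and 3 held CACGTG. These 13 were picked by their rise in these data, and 5 of them reached the limit in only 1 or 2 groups. The same shares were not counted for all genes that rose, and the number is small, so they are a description only. A match is a description of the letters and not of binding.

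Reads assigned to genes numbered 16994353 to 20509203 per library, so that 3 counts, the limit that a count of 0 allows, equalled 0.146 to 0.177 CPM, for counting error only. The members took 1.57 ± 0.0732% of gene reads in HFD_HDCA, 1.49 ± 0.0923% in HFD and 1.49 ± 0.0220% in ND livers (SD, n = 3 each). Summed markers of hepatocytes (Alb, Ttr, Apoa1, Tat and Serpina1a) lay between 77289 and 116562 CPM in all 9 libraries, and most of this was Alb. The genes did not move together. Tat had 729, 740 and 720 CPM in HFD_HDCA, 2629, 850 and 1193 CPM in HFD and 2626, 2418 and 2726 CPM in ND livers. Alb, Ttr and Apoa1 were higher in every HFD_HDCA library than in every ND library, and Serpina1a overlapped. The summed PPARα targets, 8 genes that mark the receptor's activity, stood at 5401 to 12502 CPM in HFD_HDCA, 2144 to 3230 CPM in HFD and 1047 to 2651 CPM in ND livers. This sum did not overlap between HFD_HDCA and the other groups, nor did Cyp4a14, Cyp4a10, Cpt1a, Ehhadh and Vnn1 singly. Acot1, Pdk4 and Fgf21 did overlap, through HFD_HDCA 1 at 31.5, 28.7 and 3.06 CPM. Acot1 had 47.0 and Pdk4 38.4 CPM in ND 2, and Fgf21 had 10.7 CPM in HFD 2. Some libraries stood apart. HFD 1 had 223 CPM over 4 clock genes, against 84.9 and 85.8 CPM in the other HFD libraries. ND 1 had 148 CPM over them, against 106 and 91.0 CPM in ND 2 and ND 3. This sum adds genes that moved opposite ways. In library 1 of each group Dbp was the highest of its group (9.68 CPM in HFD_HDCA, 91.6 in HFD and 14.9 in ND). Arntl was the lowest there (23.3, 5.03 and 17.8 CPM). Per2 and Nr1d1 were highest in HFD 1 and ND 1 but not in HFD_HDCA 1. HFD_HDCA 1 had 5441 CPM over 4 acute phase genes, against 38.4 and 60.0 CPM in the other HFD_HDCA libraries. HFD 2 had 93.6 CPM over 5 macrophage markers, against 325 and 389 CPM in HFD 1 and HFD 3, and 125 CPM over 5 liver endothelial markers, against 255 and 261 CPM. HFD 3 had 15911 CPM over 7 lipogenesis genes, against 4888 and 6389 CPM in HFD 1 and HFD 2. Counts of changed members are also given without single libraries and without both HFD 1 and HFD_HDCA 1.

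The 10 members with the most reads held 25.2 to 29.99% of all members' reads in a library. First among them was 2810007J24Rik [Sult2a8], a liver sulfotransferase that acts on bile acids. Its level was 1490.1, 1226 and 1588 CPM in the 3 HFD_HDCA livers, 1420.0, 907 and 812 CPM in the HFD livers and 1163, 1205 and 1213 CPM in the ND livers. Every HFD_HDCA library was above every ND library, but HFD 1 lay among the HFD_HDCA libraries. The difference of HFD_HDCA from HFD was 0.55 ± 0.19 on the log2 scale and did not pass the test (adjusted p = 0.133, edgeR).

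Per length, in FPKM (fragments scaled to transcript length and library size), the member with the highest mean was 1100001G20Rik [Wfdc21], which encodes a small secreted protein with a WAP domain. Its FPKM was 2389, 1022 and 1718 in HFD_HDCA livers, 1444, 881 and 987 in HFD livers and 902.5, 979 and 1070.0 in ND livers. The highest value was in HFD_HDCA 1, the library with 5441 CPM of acute phase transcripts, and their part in it was not tested. Sult2a8 came next, at a mean FPKM of 526 ± 64.6 in HFD_HDCA, 392 ± 115 in HFD and 416 ± 14.4 in ND livers (SD, n = 3 each). Next came 2010107E04Rik [Atp5mpl], a small subunit of ATP synthase, and 1190003J15Rik [Urah], which acts in the breakdown of urate. Urah averaged 352 ± 25.8 FPKM in HFD_HDCA, 329.7 ± 49.9 in HFD and 336 ± 7.18 in ND livers. Atp5mpl was chosen here after its values were seen. Median FPKM over the 9 libraries was 11.5 for the 24 non-coding members and 11.5 for the 248 protein-coding members. The highest non-coding member in FPKM, also named after its values were seen, was 0610005C13Rik, with 131 ± 28.3 FPKM in HFD_HDCA, 123 ± 35.3 in HFD and 90.9 ± 4.28 in ND livers.

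The other members with the most reads showed small differences. 1300017J02Rik averaged 553.7 ± 38.2 CPM in HFD_HDCA, 548 ± 36.4 CPM in HFD and 595 ± 49.9 CPM in ND livers. 1300001I01Rik [Cluh], which binds mRNAs of mitochondrial proteins, 1300010F03Rik [Vwa8], a mitochondrial ATPase, 4931406C07Rik, C130074G19Rik and 1110038D17Rik [Gucd1] had fitted differences between -0.23 and 0.39 on the log2 scale over the 3 comparisons. None of these 5 passed the test in any comparison. 1500003O03Rik [Chp1] did, and is described below.

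**Figure D1:**
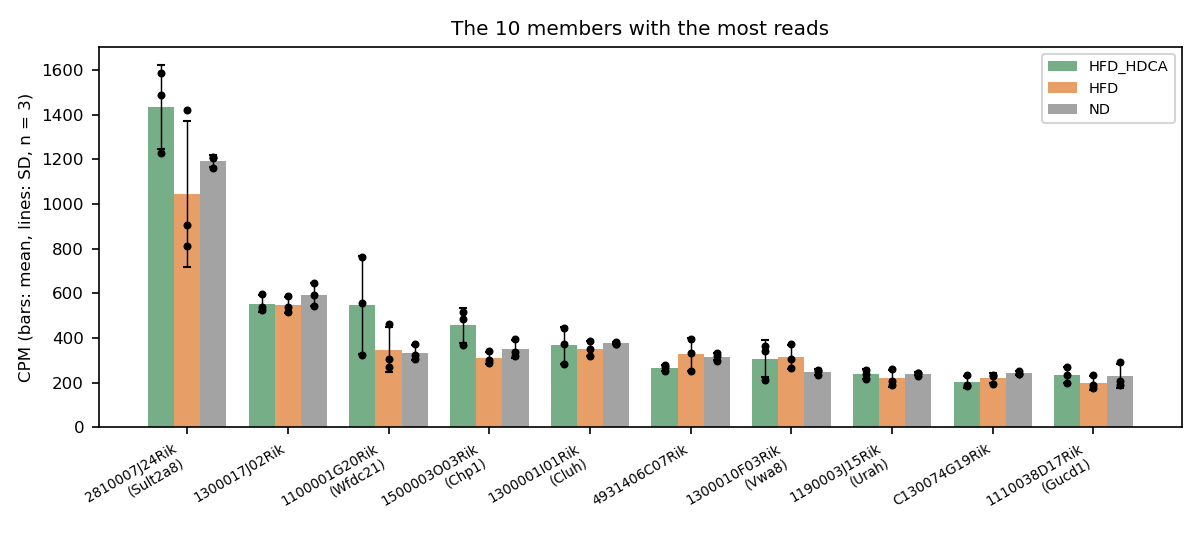
Level in CPM (vertical axis) of the 10 members with the most reads, with bars for the mean, lines for the SD (n = 3) and points for the livers, in HFD_HDCA (green), HFD (orange) and ND (grey) order. Sult2a8 stands above the others at 812 to 1588 CPM, and Wfdc21 has the widest spread in HFD_HDCA livers.

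The comparison of HFD_HDCA with HFD asks what adding the bile acid to the high-fat diet changed. Of the 275 members 13 rose and 2 fell at an adjusted p under 0.05 (5.45%), where 3.4% of all 12587 genes tested were called, 1.67% higher and 1.73% lower. Among the 223 members at the limit in all groups 8 rose and 1 fell (4.04%). The median log2 difference was 0.08 over the members and -0.002 over all genes tested. Other genes that reached 15 CPM in a group were called at 4.62%. Testing FPKM on a log2 scale with limma gave 9 members higher and 5 lower (5.09%), a less one-sided split, where 3.55% of all genes were called. The median log2 difference of all genes was -0.103 in that fit, so its split is relative to this shift. Without HFD 1 and HFD_HDCA 1, 31 members rose and 6 fell (13.5% of 275), and 7.7% of all genes tested were called.

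Among the genes that rose were 6 of the 24 non-coding members, and 1 more fell. Of these 7, 4 reached the limit only in HFD_HDCA and 1, 4931408D14Rik, in 2 groups, so that their number partly reflects the way the genes were chosen. The 4 were 1300015D01Rik, 1300002E11Rik, 2810013P06Rik and 2410006H16Rik. Of the 14 non-coding members at the limit in all groups, 1 rose and 1 fell. 1300015D01Rik [Ctcflos], which lies opposite the gene of the CTCF paralogue Ctcfl, had 17.4, 21.6 and 22.3 CPM in HFD_HDCA livers, 11, 11.6 and 9.20 CPM in HFD livers and 11.6, 11.5 and 10.1 CPM in ND livers. The HFD_HDCA libraries were above all others, and HFD and ND libraries overlapped. The log2 difference from HFD was 1.03 ± 0.14 (adjusted p = 0.00599, edgeR). The long non-coding RNA 1300002E11Rik had 14.5, 19 and 19.5 CPM in HFD_HDCA livers, 9.88, 9.65 and 10.1 CPM in HFD livers and 10.6, 11.3 and 11.8 CPM in ND livers. Its HFD_HDCA libraries also lay above all others, with a log2 difference from HFD of 0.92 ± 0.13 (adjusted p = 0.00618, edgeR). Both genes were called whichever of the 9 libraries was left out. They are members only through their level in HFD_HDCA livers, so these calls are not independent of the way the genes were chosen.

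4931408D14Rik was the only member called in all 3 comparisons. It had 30, 45.6 and 39.7 CPM in HFD_HDCA livers, 22.3, 13.2 and 15.3 CPM in HFD livers and 9.02, 7.0 and 5.18 CPM in ND livers. The 3 groups did not overlap. The log2 difference was 1.27 ± 0.22 for HFD_HDCA over HFD (adjusted p = 0.0147), 1.25 ± 0.23 for HFD over ND (adjusted p = 0.0322) and 2.52 ± 0.23 for HFD_HDCA over ND (adjusted p = 0.000798, edgeR). These comparisons share libraries. The last was called in 9 of 9 leave-one-out fits, HFD_HDCA over HFD in 6 and HFD over ND in 2.

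2810013P06Rik, which lies 291 bases from Ankrd11, had 14, 14.1 and 18.2 CPM in HFD_HDCA livers, 9.13, 8.14 and 6.95 CPM in HFD livers and 5.23, 5.73 and 7.30 CPM in ND livers. HFD_HDCA libraries were above the rest, and HFD 3 lay under ND 3. The log2 difference was 1.02 ± 0.17 from HFD (adjusted p = 0.0144) and 1.43 ± 0.18 from ND (adjusted p = 0.00247, edgeR). Ankrd11 itself differed by -0.03 ± 0.18 between HFD_HDCA and HFD livers (adjusted p = 0.946). 2410006H16Rik had 22.2, 14.2 and 22 CPM in HFD_HDCA livers, 12.0, 5.70 and 6.63 CPM in HFD livers and 9.24, 10.7 and 10.2 CPM in ND livers, a log2 difference from HFD of 1.37 ± 0.26 (adjusted p = 0.0241, edgeR). 5033403H07Rik, the non-coding member that rose among those at the limit in all groups, had 45.2, 33.3 and 44.1 CPM in HFD_HDCA livers, 32.4, 21.3 and 20.2 CPM in HFD livers and 24.5, 25.9 and 23.6 CPM in ND livers. HFD 1 lay just under HFD_HDCA 2, and the log2 difference from HFD was 0.83 ± 0.18 (adjusted p = 0.0366, edgeR).

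1500017E21Rik [Hectd2os], which overlaps Hectd2, had the largest fall among the called members. It stood at 39.2, 56.4 and 96.1 CPM in HFD_HDCA livers, 165, 219 and 134 CPM in HFD livers and 117, 137 and 107 CPM in ND livers. Every HFD_HDCA library was under every other library. The log2 difference from HFD was -1.37 ± 0.31 (adjusted p = 0.0459, edgeR), called in 1 of 9 leave-one-out fits, with an adjusted p of 0.0949 without both HFD 1 and HFD_HDCA 1. Hectd2, at a mean of only 3.08 CPM over the 9 libraries, differed by 0.03 ± 0.24 (adjusted p = 0.952). How counting treated strand is not stated, so reads of overlapping genes on opposite strands cannot be told apart with certainty. 1500012F01Rik [Zfas1], a host of small nucleolar RNAs that overlaps Znfx1, had 20.8, 12.7 and 21.1 CPM in HFD_HDCA livers, 12.8, 5.17 and 4.33 CPM in HFD livers and 8.38, 10.2 and 10.7 CPM in ND livers. Its log2 difference from HFD, 1.41 ± 0.37, did not pass the test (adjusted p = 0.0723, edgeR), and HFD 1 lay above HFD_HDCA 2.

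The protein-coding members that rose numbered 7, and 1 fell, of 248. 1110018G07Rik [Arel1], a ubiquitin ligase that counters apoptosis, had 87.8, 105 and 99.1 CPM in HFD_HDCA livers, 70.6, 63.8 and 63.0 CPM in HFD livers and 72.6, 71.7 and 65.4 CPM in ND livers. The HFD_HDCA libraries were above all others. Its log2 difference from HFD was 0.65 ± 0.09 (adjusted p = 0.00825, edgeR), called in 9 of 9 leave-one-out fits. Fcf1, a ribosome biogenesis factor whose locus lies 44 bases away, had a log2 difference of 0.63 ± 0.16 that did not pass (adjusted p = 0.0578). 4930420K17Rik [Tmem243], a membrane protein, had 103, 89.6 and 121 CPM in HFD_HDCA livers, 74.0, 70.5 and 64.7 CPM in HFD livers and 78.7, 82.2 and 81.5 CPM in ND livers, with no overlap of HFD_HDCA and the other groups. The log2 difference from HFD was 0.67 ± 0.13 (adjusted p = 0.0204, edgeR).

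1810013D10Rik [Smim20], a small inner membrane protein of mitochondria that helps assemble cytochrome c oxidase, had 36.3, 31.0 and 38.0 CPM in HFD_HDCA livers, 28.2, 20.4 and 21.6 CPM in HFD livers and 19.6, 18.8 and 17.7 CPM in ND livers. None of the 3 groups overlapped. The log2 difference was 0.68 ± 0.13 from HFD (adjusted p = 0.0241) and 1.0 ± 0.13 from ND (adjusted p = 0.00344, edgeR). 1110018J18Rik [Prxl2c], a peroxiredoxin-like protein, had 49.8, 58.2 and 61.1 CPM in HFD_HDCA livers, 45.3, 31.6 and 34.0 CPM in HFD livers and 34.4, 45.1 and 41.0 CPM in ND livers. D930014E17Rik [Akip1], which binds the catalytic subunit of protein kinase A, had 24.4, 27.0 and 29.0 CPM in HFD_HDCA livers, 21.7, 17.4 and 14.2 CPM in HFD livers and 19.7, 19.7 and 19 CPM in ND livers. In both genes all HFD_HDCA libraries were above all others, with log2 differences from HFD of 0.70 ± 0.14 for Prxl2c (adjusted p = 0.0282, edgeR) and 0.68 ± 0.14 for Akip1 (adjusted p = 0.0285, edgeR).

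1500003O03Rik [Chp1], a calcium-binding partner of sodium-proton exchangers and of an acyltransferase of glycerolipid synthesis, had 370.2, 484 and 519 CPM in HFD_HDCA livers, 341, 301 and 289.9 CPM in HFD livers and 318, 395 and 339 CPM in ND livers. HFD_HDCA lay above HFD and overlapped ND. The log2 difference from HFD was 0.64 ± 0.14 (adjusted p = 0.0375, edgeR). 9530008L14Rik [Adtrp], a hydrolase of fatty acid esters of hydroxy fatty acids, had 227, 214 and 254 CPM in HFD_HDCA livers, 164, 170.1 and 118 CPM in HFD livers and 149.7, 165 and 170.4 CPM in ND livers. The log2 difference was 0.70 ± 0.16 from HFD (adjusted p = 0.0407) and 0.60 ± 0.16 from ND (adjusted p = 0.0479, edgeR). Its HFD_HDCA libraries stood above all others. D630039A03Rik had 11.5, 10.9 and 15.2 CPM in HFD_HDCA livers, 18.1, 27.3 and 23.7 CPM in HFD livers and 16.8, 16.1 and 17.2 CPM in ND livers. It fell by 0.80 ± 0.19 on the log2 scale relative to HFD (adjusted p = 0.0458, edgeR), and HFD_HDCA lay under the other groups.

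How far single libraries carried these calls varied. Of the 15 called members, Ctcflos, 1300002E11Rik and Arel1 were called in all 9 leave-one-out fits, while Hectd2os and D630039A03Rik were called in 1 of 9. Ctcflos and 1300002E11Rik reached the limit only in HFD_HDCA, and Arel1 in all 3 groups. The number of members called was 3 without HFD 3, 4 without HFD_HDCA 3, 7 without HFD 2 and 9 without ND 1 or without ND 2, where 1.2, 0.993, 1.56, 1.7 and 1.89% of all genes tested were called. It was 27 without HFD 1 and 40 without HFD_HDCA 2, with 5.26 and 5.06% of all genes. A fit of the 6 HFD_HDCA and HFD libraries alone called 5 members (1.82% of 275) and 1.08% of all genes. Without both HFD 1 and HFD_HDCA 1, Hectd2os alone of the 15 was not called.

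**Figure D2:**
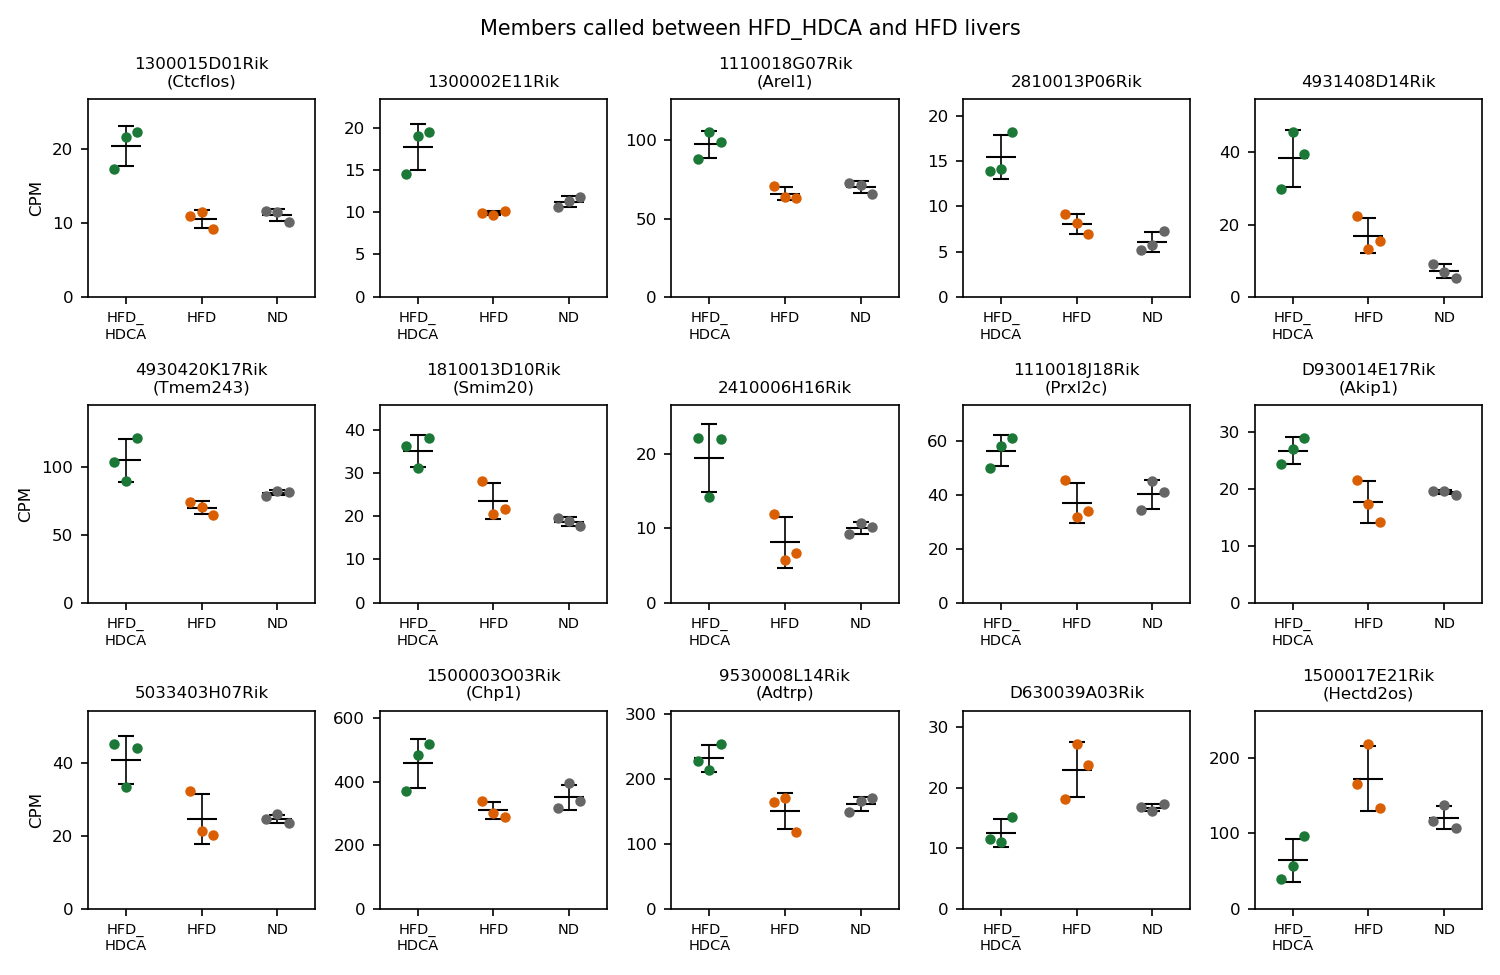
CPM in each liver (vertical axes, from 0) of the 15 members called between HFD_HDCA and HFD livers, in order of adjusted p, with bars for mean and SD (n = 3). In the first 13 panels HFD_HDCA (green) lies higher than HFD (orange), and in D630039A03Rik and Hectd2os it lies lower.

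**Figure D3:**
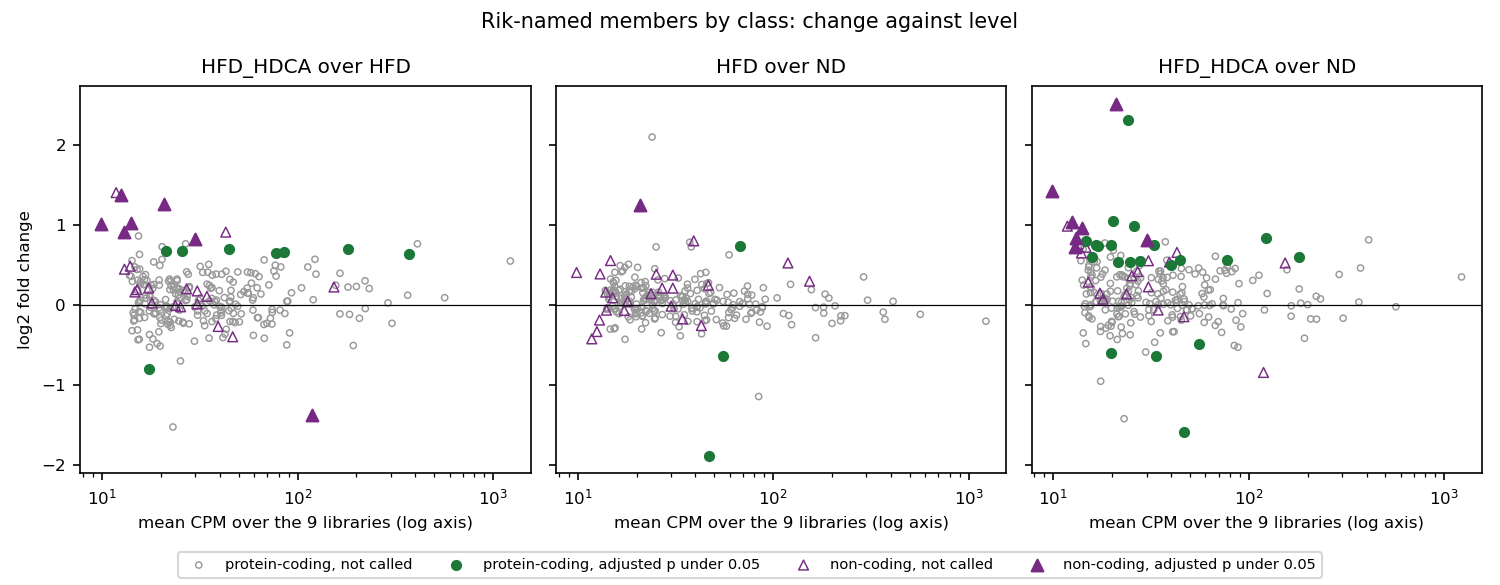
Fitted log2 fold change (vertical axis) against mean CPM over 9 libraries (log axis) for 248 protein-coding members (circles) and 24 non-coding members (triangles) in the 3 comparisons, with filled symbols for an adjusted p under 0.05. Called members number 15, 4 and 28 from left to right, and the called non-coding members lie mostly at the left, near the limit of 15 CPM.

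The comparison of HFD with ND asks what the high-fat diet changed. Of the members 2 rose and 2 fell (1.45%), where 0.953% of all genes tested were called, 0.477% in each direction. Of the 223 at the limit in all groups, 1 rose and 2 fell (1.35%). Among other genes that reached 15 CPM in a group, 1.16% were called. The median log2 difference was 0.05 over the members and 0.02 over all genes tested, and 261 of the 275 members differed by less than 0.5 on the log2 scale. With limma on FPKM 3 members were higher and 1 lower (1.45%), where 1.13% of all genes were called and their median log2 difference was 0.112. No member was called without ND 1, ND 3, HFD 2 or HFD 3, and 1 was called without ND 2. In these fits 20 to 34 members were under an unadjusted p of 0.05, 7.27 to 12.4% of them, as were 7.97 to 10.1% of all genes. The count was 7 without HFD 1 and also without HFD_HDCA 1, where 1.77 and 1.64% of all genes tested were called. It was 13 without both (4.73% of 275, with 4.54% of all genes tested).

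4833442J19Rik [Etfbkmt], a mitochondrial methyltransferase of the electron transfer flavoprotein, had 31.2, 20.2 and 31.5 CPM in HFD_HDCA livers, 34.0, 20.7 and 18.1 CPM in HFD livers and 79.0, 70.0 and 117 CPM in ND livers. Every library of both high-fat groups was under every ND library, and the 2 high-fat groups overlapped. It fell by 1.88 ± 0.29 on the log2 scale in HFD relative to ND (adjusted p = 0.0225, edgeR). HFD_HDCA was also lower than ND, with a log2 difference of -1.59 ± 0.28 (adjusted p = 0.0137), and differed from HFD by 0.29 ± 0.28 (adjusted p = 0.583, edgeR). D230025D16Rik had 48.0, 46.1 and 51.6 CPM in HFD_HDCA livers, 46.0, 43.8 and 49.6 CPM in HFD livers and 66.7, 69.1 and 80.4 CPM in ND livers. It showed the same order of groups, with log2 differences of -0.63 ± 0.11 for HFD over ND (adjusted p = 0.0253) and -0.48 ± 0.11 for HFD_HDCA over ND (adjusted p = 0.0290, edgeR).

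1810058I24Rik had 62.7, 56.2 and 67.6 CPM in HFD_HDCA livers, 93.4, 92.4 and 77.4 CPM in HFD livers and 56.4, 55.8 and 45.8 CPM in ND livers. All HFD libraries were above all others, and HFD_HDCA 2 lay just under ND 1. The rise in HFD over ND was 0.74 ± 0.13 on the log2 scale (adjusted p = 0.0292, edgeR), while the difference of HFD_HDCA from HFD, -0.41 ± 0.13, did not pass (adjusted p = 0.110). None of the 275 members was called by edgeR in opposite directions in HFD over ND and HFD_HDCA over HFD, which share the HFD libraries. At an unadjusted p under 0.05 there were 8 such members (2.91%, against 3.5% of all genes tested), and DESeq2 called 1 and limma on FPKM 0.

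Larger differences than some of these were not called. 2010003K11Rik had 18.8, 39.6 and 44.6 CPM in HFD_HDCA livers, 14, 43.0 and 34.6 CPM in HFD livers and 8.86, 7.71 and 5.12 CPM in ND livers. All libraries of both high-fat groups lay above ND, with the lowest values in HFD 1 and HFD_HDCA 1. Its log2 difference was 2.10 ± 0.48 for HFD over ND (adjusted p = 0.109) and 2.32 ± 0.48 for HFD_HDCA over ND, which passed (adjusted p = 0.0290, edgeR). 8430408G22Rik [Depp1], a FOXO target that acts in autophagy, had 45.1, 93.6 and 101 CPM in HFD_HDCA livers, 27.4, 54.5 and 79.0 CPM in HFD livers and 96.7, 120.3 and 140.3 CPM in ND livers, and its difference of -1.14 ± 0.40 for HFD over ND did not pass (adjusted p = 0.318, edgeR). 1810055G02Rik, C730036E19Rik, 1810011O10Rik [Tcim] and 1110067D22Rik [Lgalsl] were higher in HFD than in ND by 0.73 to 0.80 on the log2 scale and did not pass either.

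**Figure D4:**
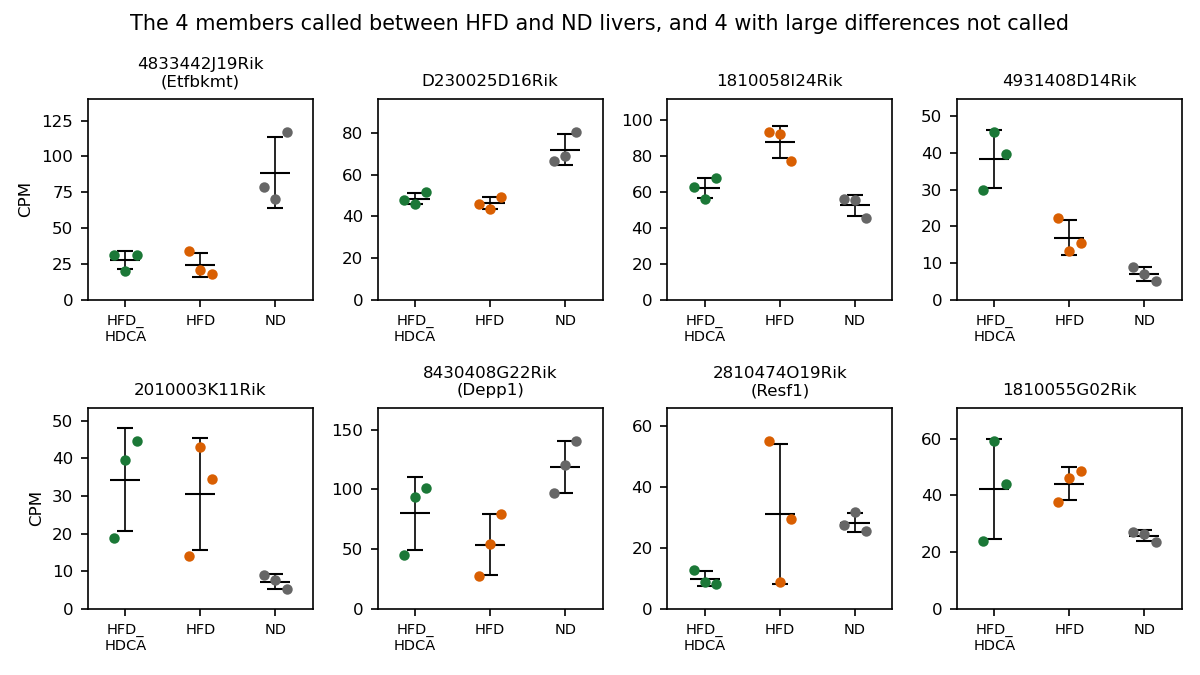
CPM in each liver (vertical axes, from 0) of the 4 members called between HFD and ND livers (top row) and of 4 members with large differences in a comparison with HFD that were not called there (bottom row), with bars for mean and SD (n = 3). Etfbkmt and D230025D16Rik are lower in both high-fat groups than in ND, and Resf1 spreads between 8.83 and 54.9 CPM in HFD.

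The comparison of HFD_HDCA with ND combines the diet and the bile acid. Of the members 24 rose and 4 fell (10.2%), against 6.47% of all genes tested, 3.65% higher and 2.82% lower. Of the 223 at the limit in all groups, 12 rose and 3 fell (6.73%). Among other genes that reached 15 CPM in a group, 8.81% were called. The median log2 difference was 0.13 over the members and 0.03 over all genes tested. Non-coding members contributed 7 rises of 24, and 1 of these 7 reached the limit in all groups. Besides the genes above, the rises included 2610019F03Rik [Tdrp], with 25.9, 29.7 and 26.4 CPM in HFD_HDCA livers, 21.1, 20.5 and 16.7 CPM in HFD livers and 15, 16 and 11.1 CPM in ND livers, 3 groups without overlap. Its log2 difference from ND was 1.05 ± 0.15 (adjusted p = 0.00492, edgeR). 2410001C21Rik [Rtf2], a factor at stalled replication forks, had 123, 196 and 162 CPM in HFD_HDCA livers, 96.2, 123 and 119.6 CPM in HFD livers and 89.8, 99.4 and 95 CPM in ND livers. Its HFD_HDCA libraries all lay above ND, by 0.84 ± 0.16 on the log2 scale (adjusted p = 0.0168, edgeR).

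Other rises were those of 9130401M01Rik, A430005L14Rik, 2310030G06Rik, 1600012H06Rik, 2810055F11Rik [L3hypdh], C030044B11Rik [Fam120aos], 1110059E24Rik, 2310011J03Rik, 2010003K15Rik [Smlr1] and C330018D20Rik, at 0.51 to 0.84 on the log2 scale. L3hypdh, a dehydratase of hydroxyproline, had 29.7, 24.4 and 27.6 CPM in HFD_HDCA livers, 29.9, 27.1 and 24.7 CPM in HFD livers and 19.3, 20.7 and 19.6 CPM in ND livers, and both high-fat groups lay above ND. Falls beside those of Etfbkmt and D230025D16Rik were 5430407P10Rik [Proser2] and 5430411K18Rik [Epg5], a tether in the fusion of autophagosomes with lysosomes. Epg5 had 19.4, 29.7 and 28.2 CPM in HFD_HDCA livers, 32.3, 30.6 and 34.4 CPM in HFD livers and 42.9, 42.9 and 40.9 CPM in ND livers. It fell by 0.63 ± 0.13 on the log2 scale (adjusted p = 0.0209, edgeR), and its lowest value was in HFD_HDCA 1. Proser2 had 13.7, 13.9 and 15.7 CPM in HFD_HDCA livers, 23.6, 22.7 and 19.1 CPM in HFD livers and 25.6, 21.9 and 22.2 CPM in ND livers, and fell by 0.60 ± 0.12 (adjusted p = 0.0205, edgeR). Called members numbered 8, 11 and 12 without ND 1, 2 and 3, and 12 without HFD_HDCA 3. In these 4 fits 1.54, 2.69, 2.6 and 2.41% of all genes tested were called. Called members numbered 65 without HFD_HDCA 2, with 9.48% of all genes.

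Over all comparisons 33 members were called at least once, 25 protein-coding and 8 non-coding, and 242 were not. These 33 were 12.0% of the members, and 8.09% of all genes tested were called at least once. Of the 33, 19 reached the limit in all groups and 14 in 1 or 2 groups, so their number also depends on the way the genes were chosen. The most common pattern, in 13 members, was a rise in HFD_HDCA over ND alone, followed by a rise over both HFD and ND in 10. Patterns were not counted over all genes tested, so their order is a description only. Over all genes HFD_HDCA over ND also had the most calls, 6.47% against 3.4% in HFD_HDCA over HFD and 0.953% in HFD over ND.

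By function, members with a known role were grouped after the values had been seen, so these counts are a description. Of all genes tested, 1.67% were called higher in HFD_HDCA than in HFD and 3.65% higher than in ND. An unadjusted p under 0.05 was reached by 22% of all genes in HFD_HDCA over HFD, 11.5% in HFD over ND and 26.1% in HFD_HDCA over ND. Of 27 mitochondrial members, 1 rose in HFD_HDCA over HFD (Smim20), and the median log2 difference was 0.23. Over ND 1 rose and 1 fell (Smim20 and Etfbkmt) and the median was 0.27. Micos13 and Atp5mpl had differences from HFD of 0.50 and 0.48, and neither passed the test. Relative to each gene's mean over 9 libraries, the median deviation of the mitochondrial members on log2 CPM was 0.22, -0.165 and 0.18 in HFD_HDCA 1, 2 and 3, so HFD_HDCA 2 went the other way from its group. It was 0.13, -0.01 and -0.13 in HFD livers and between -0.12 and -0.03 in ND livers. Of 15 metabolic enzymes, 2 rose in HFD_HDCA over HFD (Adtrp and Prxl2c) and 3 over ND (with L3hypdh), and none fell. Of 23 members of membrane traffic, lysosome and autophagy, Epg5 over ND was the only call by edgeR, with 5 members under an unadjusted p of 0.05 in HFD_HDCA over HFD and 1 in HFD over ND. DESeq2 called 2 higher and 2 lower in HFD_HDCA over HFD, and the median log2 differences over the 3 comparisons lay between -0.01 and 0.03. Among 21 members of RNA processing and chromatin none was called by edgeR, DESeq2 or limma on FPKM, with 5 under an unadjusted p of 0.05 in HFD_HDCA over HFD, 0 in HFD over ND and 6 in HFD_HDCA over ND by edgeR. Their largest difference was that of 2810474O19Rik [Resf1], a silencing factor of retroelements, at -1.52 ± 0.53 in HFD_HDCA over HFD (adjusted p = 0.146). Resf1 had 12.6, 8.82 and 8.21 CPM in HFD_HDCA livers, 54.9, 8.83 and 29.4 CPM in HFD livers and 27.5, 31.6 and 25.4 CPM in ND livers, so HFD 2 lay among the HFD_HDCA libraries.

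Differences between the groups varied with merged exon length, which covers every annotated transcript of a gene and can exceed that of the transcript expressed. It was available for 263 members, and the same split was not made for all genes. Among the 88 shortest, of 434 to 2871 bases, the median log2 difference was 0.21 in HFD_HDCA over HFD, 0.11 in HFD over ND and 0.35 in HFD_HDCA over ND. Among the 88 longest, of 5389 to 32279 bases, the same medians were -0.02, -0.01 and -0.002. By library, the short members deviated from the 9-library mean by 0.20, -0.06 and 0.17 in HFD_HDCA 1, 2 and 3, by 0.13, -0.05 and -0.09 in HFD 1, 2 and 3 and by -0.08, -0.13 and -0.11 in ND 1, 2 and 3. The long members deviated by -0.24, 0.02 and 0.02 in HFD_HDCA livers, by 0.10, -0.03 and -0.01 in HFD livers and by 0.03, 0.03 and 0.04 in ND livers. Short minus long was 0.445, -0.078 and 0.154 in HFD_HDCA livers, 0.026, -0.023 and -0.083 in HFD livers and -0.111, -0.16 and -0.157 in ND livers. Every library of both high-fat groups was above every ND library in this gap, and HFD_HDCA 2 lay among the HFD libraries. The median exon length was 6731 bases in the RNA and chromatin members and 3006 bases in the mitochondrial members. The part of length in the differences above was not tested.

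**Figure D5:**
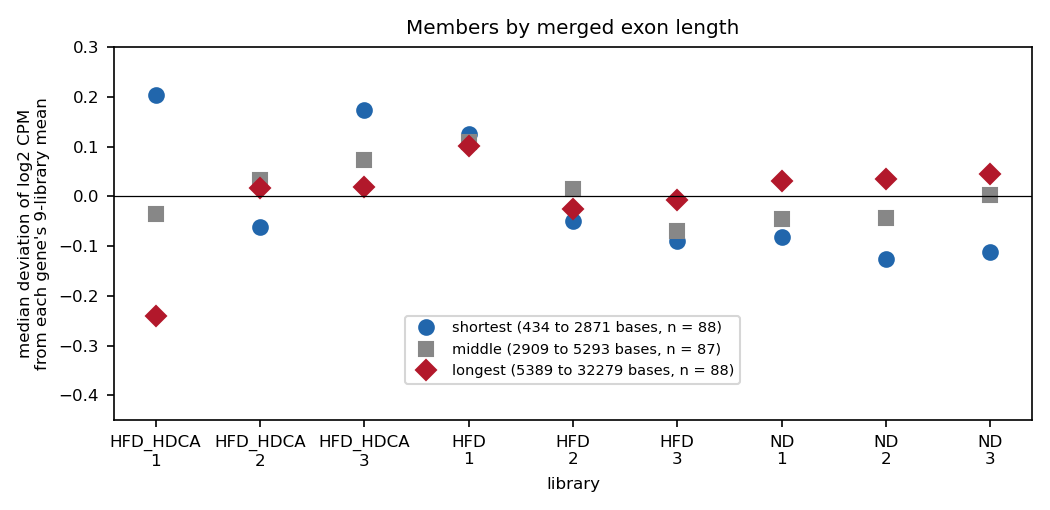
Median deviation of log2 CPM from each gene's mean over 9 libraries (vertical axis) by library (horizontal axis), for 263 members split by merged exon length into shortest, middle and longest. HFD_HDCA 1 has the shortest at 0.20 and the longest at -0.24, whereas in HFD_HDCA 2 all of them lie between -0.06 and 0.03.

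Spread between livers of a group was lowest on the normal diet. The median SD of log2 CPM over the members was 0.19 in HFD_HDCA, 0.16 in HFD and 0.10 in ND livers, and 12, 16 and 2 members in these groups had an SD of at least 0.5. Resf1 had the widest spread, 1.34 in HFD livers, followed there by 2010003K11Rik (0.86) and Zfas1 (0.84). In HFD_HDCA livers the widest were 9130409I23Rik (0.76), 2010003K11Rik (0.68) and 1810055G02Rik (0.67). In ND livers they were Lgalsl (0.61), C730036E19Rik (0.55) and 2900026A02Rik (0.43). Lgalsl, a galectin-related protein, had 34.2, 41.7 and 42.7 CPM in HFD_HDCA livers, 22.8, 59.6 and 56.6 CPM in HFD livers and 18.3, 24.6 and 42.2 CPM in ND livers.

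The deposited FPKM gave a separate summary of the same libraries. Divided by CPM per kilobase of merged exons, FPKM had a median ratio of 1.2 over 263 members, with 5% below 0.753 and 5% above 4.20. The lowest ratios were those of C730036E19Rik (0.271), 2610507I01Rik (0.358), 4930455C21Rik [Timmdc1] (0.653), 1110001A16Rik [Cebpzos] (0.695) and 1110037F02Rik [Virma] (0.724). The highest belonged to 1810035L17Rik [Slirp] (10.4), 2310003F16Rik [Hypk] (9.43), 1810022K09Rik [Rbis] (7.83), Smlr1 (6.59) and Tmem243 (6.19). The merged exons come from another annotation than the one the authors used, and its part in these ratios was not tested. In C730036E19Rik, FPKM ran from 5.12 to 16.2 over the 9 libraries and CPM from 21.6 to 66.5.

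None of the 21 tested neighbours within 5000 bases of the called members or of those with the largest differences passed the test by edgeR in any of the 3 comparisons, the smallest adjusted p being that of Fcf1 given above. Their mean levels ran from 0.371 to 162 CPM, and changes in the lowest could be measured only roughly. Exd1, 80 bases from Chp1 and at 3.88 CPM, differed by 0.64 ± 0.28 in HFD_HDCA over HFD (adjusted p = 0.214, edgeR). For these neighbours other shares follow. At an unadjusted p under 0.05 there were 2 of the 21 neighbours in HFD_HDCA over HFD, 0 in HFD over ND and 4 in HFD_HDCA over ND. DESeq2 called 1, 0 and 2 of them, and limma on FPKM called none. Over all genes tested these shares were 22, 11.5 and 26.1% at an unadjusted p under 0.05 and 8.62, 3.02 and 11.1% called by DESeq2. Beside 4931408D14Rik, the insulin-degrading enzyme gene Ide lay 4646 bases away and differed by -0.21 ± 0.16 in HFD_HDCA over HFD (adjusted p = 0.482). Fam120a, 284 bases from Fam120aos, differed by -0.29 ± 0.10 in HFD_HDCA over ND (adjusted p = 0.102), where Fam120aos rose by 0.84 ± 0.20 (adjusted p = 0.0341, edgeR). Dmtf1, which overlaps Tmem243, differed by 0.09 ± 0.13 in HFD_HDCA over HFD (adjusted p = 0.706).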

How the data were processed

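RNA of 9 mouse livers had been sequenced, and the groups and replicate numbers were read from the sample titles. The members and gene lists were chosen with earlier results of these data known. The authors deposited, for each library, raw counts per gene from HTSeq, per the names of the deposited files, with no normalization, and Cufflinks tables whose values are FPKM, per the file headers. TopHat 1.3.2, Cufflinks 2.0.2 and mm10 appear in the submitters' processing notes. The HTSeq strand setting is not given in the sources used here. CPM was computed over gene reads, which made up 63.9 to 72.1% of a file, leaving out the 5 read classes at the end of each file.

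The counts went into edgeR 4.0.16 in R 4.3.3 (quasi-likelihood F test with robust estimation, TMM, filterByExpr with a minimum count of 10) in a fit of all 9 libraries over 12587 genes. All 275 members passed this filter. P-values were two-sided, adjusted by Benjamini-Hochberg over all genes tested, and a gene was called at an adjusted p under 0.05. The error after ± on a log2 difference is its standard error from the F statistic. P-values measure the spread between these samples only, since the labels say no more about how the mice were kept. Alternatives used DESeq2 1.42.0, limma 3.58.1 on log2(FPKM + 0.1) or log2(FPKM + 1), other scalings, left-out libraries and other limits. The fit was also run on counts simulated from the levels and spread of these data, with 200 changes planted in each comparison. How many of them it recovered is not reported here. Named genes were the called members, the 5 largest rises and falls in each comparison, the 10 with the most reads, 3 on each side of the limit, the 5 highest and 5 lowest ratios of FPKM to counts, the 3 most variable in each group, and neighbours of the called and most changed members. Names, positions and promoters follow RefSeq on GRCm38.p6, and exon lengths GENCODE M21.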

Additional observations from a re-analysis of the deposited data

How the results depend on the processing

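The number of members was 275, 339 with a limit of 10 CPM, 277 on TMM-scaled libraries and 148 with a limit of 30 CPM. Called members numbered 15 in HFD_HDCA over HFD, 4 in HFD over ND and 28 in HFD_HDCA over ND. DESeq2 gave 36, 8 and 48, with 8.62, 3.02 and 11.1% of all genes tested called. Fitting only the 6 libraries compared gave 5, 4 and 34 (1.08, 1.23 and 8.1% of all genes). Without both HFD 1 and HFD_HDCA 1 there were 37, 13 and 36 (7.7, 4.54 and 9.12% of all genes). With a limit of 30 CPM the counts, out of 148 members, were 9, 4 and 14. RLE or upper quartile factors, no low-count filter, a limit of 10 CPM and limma on FPKM gave counts within 1.5 times of these. Leaving out 1 library gave 3 to 40, 0 to 7 and 8 to 65, with 0.993 to 5.26, 0.25 to 1.77 and 1.54 to 9.48% of all genes tested. Whether replicate numbers pair the samples is not given by the labels, and the main fit did not pair them. Same-numbered libraries had deviations correlated at -0.149 to 0.154 and the other pairs at -0.145 to 0.129, which cannot exclude pairing. Dbp, a clock gene, was highest in library 1 of each group. A replicate block gave 14, 4 and 23 members called, with 2.61, 0.651 and 5.68% of all genes tested. Of 1080 alternatives for single named genes 839 kept both direction and side of the threshold, 221 lost and 20 gained the call, and 0 were reversed. Limma on FPKM with 0.1 added moved the median of all genes to 0.112 in HFD over ND, a shift of 0.0928, and to -0.103 in HFD_HDCA over HFD, a shift of -0.101, so its calls are relative to that shift. The causes of these differences were not tested. With 3 livers a group, the spread between livers limits the precision, and low-count members also carry counting error.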

Other observations

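Of the 2004 Rik-named genes under 15 CPM in every group, 477 passed the filter on low counts, and some differed by more than any member did. B930025P03Rik had 7.12, 10.5 and 9.20 CPM in HFD_HDCA livers, 0.983, 0.0488 and 0.321 CPM in HFD livers and 0.961, 1.16 and 1.12 CPM in ND livers. Its log2 difference was 4.44 ± 0.51 for HFD_HDCA over HFD (adjusted p = 0.00343) and 3.12 ± 0.46 for HFD_HDCA over ND (adjusted p = 0.00551, edgeR), with 1 to 17 reads per HFD library. 3930402G23Rik had 2.28, 5.24 and 3.93 CPM in HFD_HDCA livers, 0.173, 0.195 and 0.374 CPM in HFD livers and 0.427, 1.38 and 0.941 CPM in ND livers, a log2 difference of 3.98 ± 0.51 for HFD_HDCA over HFD (adjusted p = 0.00429, edgeR). HFD_HDCA lay above both other groups in these genes. 1700092C10Rik had no read in any HFD_HDCA library, 28, 14 and 19 reads in the HFD libraries and 14, 5 and 16 reads in the ND libraries.

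D130043K22Rik had 4.51, 4.09 and 4.98 CPM in HFD_HDCA livers, 13.7, 9.41 and 14.8 CPM in HFD livers and 6.89, 7.55 and 7.53 CPM in ND livers, with no overlap of any group. It fell by 1.39 ± 0.18 on the log2 scale in HFD_HDCA relative to HFD (adjusted p = 0.00425, edgeR). 5730409E04Rik had 7.90, 8.13 and 8.79 CPM in HFD_HDCA livers, 9.02, 8.29 and 8.72 CPM in HFD livers and 5.34, 4.96 and 5.0 CPM in ND livers. It was higher in both high-fat groups than in ND, by 0.77 ± 0.13 in HFD (adjusted p = 0.0249) and 0.78 ± 0.13 in HFD_HDCA (adjusted p = 0.00910, edgeR). These 5 genes were chosen after their values were seen.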
